A study of Mus musculus with 10 samples.

Results

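Open chromatin was examined at 5 mouse genes of canonical Wnt signalling, namely the 4 genes for the TCF and LEF transcription factors (Tcf7, Lef1, Tcf7l1 and Tcf7l2) and Axin2, during the reprogramming of fibroblasts to pluripotency. The genes were chosen by name and not by their accessibility, although earlier results of these data were known. They are 5 of 21627 protein-coding genes. At each gene, every ATAC-seq peak from 30 kb before to 30 kb after the gene was taken from each of the 10 libraries. Overlapping peaks of different libraries were merged into regions, and the 5 windows held 186 of the 208851 regions of the whole study. ATAC-seq marks accessible DNA with a transposase that cuts it and adds sequencing adapters, and a peak is a stretch where such cuts pile up.

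The libraries fell into 5 stages of 2 libraries each, all on a C57BL/6 x 129 strain background. Mouse embryonic fibroblasts (MEF) of the genotype OKSM Col1a1/M2rtTA ROSA26, in which doxycycline switches on Oct4, Sox2, Klf4 and Myc, the factors of the cassette,, were taken unsorted from MEF medium without doxycycline. The same cells were collected after 3, 6 and 9 days (DAY3, DAY6 and DAY9) in ESC medium with 1 ug/ml doxycycline and 50 ug/ml ascorbic acid, unsorted at DAY3 and sorted for the surface marker SSEA1 at DAY6 and DAY9. Pluripotent reference cells (ESC) were of the V6.5 line of embryonic stem cells, which lacks these transgenes and was grown unsorted in ESC medium on irradiated feeder cells. Medium, sorting and genotype therefore changed together with stage, and their parts in a difference between stages cannot be told apart. The labels name an inhibitor of GSK3, a kinase that holds the Wnt pathway in check, for V6.5 cells of other assays of the study and not for these libraries.

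In the canonical Wnt pathway a secreted ligand binds Frizzled and LRP receptors, the complex that destroys beta-catenin is switched off, and beta-catenin enters the nucleus and binds TCF and LEF factors on DNA. Without beta-catenin these factors recruit Groucho (TLE) corepressors. TCF7L1, also known as TCF3, is the TCF best known as a repressor of pluripotency genes in mouse embryonic stem cells, while TCF7 and LEF1 act mainly as activators with beta-catenin and TCF7L2 can do either. Axin2 is a scaffold of the destruction complex, a direct target of the pathway and one of its feedback inhibitors.

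The stretches before the starts of Lef1, Tcf7l1 and Tcf7l2 are shown because they carry the contrast found at the promoters. The region over the first Lef1 start was open in both ESC libraries and in no MEF library, while those over the Tcf7l1 and Tcf7l2 starts had a peak in all 10 libraries. Each is the 250 bases before the listed start from RefSeq, build GRCm38.p6, written 5′ to 3′ on the strand of the gene. Capitals mark matches to the motif letters given in the next paragraph.
Lef1, chr3:131110047-131110296, plus strand: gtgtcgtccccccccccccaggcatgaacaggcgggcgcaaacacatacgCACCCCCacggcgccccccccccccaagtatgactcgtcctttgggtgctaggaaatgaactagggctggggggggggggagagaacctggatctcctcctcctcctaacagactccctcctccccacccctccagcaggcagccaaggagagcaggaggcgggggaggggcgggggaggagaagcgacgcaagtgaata
Tcf7l1, chr6:72789046-72789295, minus strand: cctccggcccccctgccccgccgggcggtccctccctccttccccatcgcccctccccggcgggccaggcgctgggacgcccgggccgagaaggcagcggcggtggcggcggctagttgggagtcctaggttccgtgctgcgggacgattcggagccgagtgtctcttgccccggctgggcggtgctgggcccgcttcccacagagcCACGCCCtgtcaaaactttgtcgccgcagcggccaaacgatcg
Tcf7l2, chr19:55741560-55741809, plus strand: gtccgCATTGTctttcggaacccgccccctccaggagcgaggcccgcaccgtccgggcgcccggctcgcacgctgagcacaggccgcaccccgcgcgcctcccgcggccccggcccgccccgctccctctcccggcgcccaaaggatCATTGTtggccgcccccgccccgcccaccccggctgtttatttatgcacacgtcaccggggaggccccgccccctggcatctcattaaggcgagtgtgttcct

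The motifs searched, on both strands and each by itself where matches overlapped, were TCF/LEF (CTTTGA), SOX (CATTGT), octamer (ATGCAAAT), KLF (GGGNGTG), AP-1 (TGANTCA) and TEAD (CATTCC). Of the 32817 stretches of 250 bases before listed mouse starts, 13.8% held the TCF/LEF letters, 10.7% the SOX, 1.6% the octamer, 26.1% the KLF, 6.75% the AP-1 and 12.6% the TEAD letters. The Lef1 stretch held a KLF match on the other strand at −200, and the Tcf7l1 stretch held one on the other strand at −43. The Tcf7l2 stretch held SOX matches at −245 and −103. The stretches before the Axin2 and Tcf7 starts are not printed because they lie inside the gene models and may hold UTR. That of Axin2, whose listed start is 2521 bp inside the gene, and that of the first Tcf7 start held no match, while the second Tcf7 start had overlapping KLF matches at −77, −71 and −69. The same Lef1 KLF match lay at −226 before the second Lef1 start. Another KLF match on the other strand lay at −76 before the start at 2.5 kb. TCF/LEF letters occurred at −180 and −120, and SOX letters at −132, before an internal Lef1 start 46 kb into the gene. No region lay over that internal start. A region just after it (chr3:131156408-131156843) had a peak in DAY9 replicate 1 and ESC replicate 1 alone. The printed stretches were rich in G and C, with 66.4% at Lef1, 73.6% at Tcf7l1 and 72.8% at Tcf7l2 against a median of 52.4% over all listed starts.

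The authors' lists held between 45497 (DAY3 replicate 2) and 88980 (ESC replicate 2) peaks. Read totals are not in the lists, and the background pileup recovered from them, a measure of relative depth, ran from 2.33 in DAY6 replicate 2 to 8.32 in MEF replicate 2. The DAY3 libraries differed by 1.33 times counting noise and the DAY9 libraries by 1.42 times, so each pair was counted as 1 sample, against 5.56 times in MEF, 3.61 in DAY6 and 8.11 in ESC. Nothing in the labels says that same-stage libraries came from separate cultures or animals, so the spread may be technical. Of 10 fibroblast markers, 10 had a peak within 2.5 kb of a start or gene end in each MEF library and 8 in each ESC library. The number was 7 and 9 at DAY3, 8 and 7 at DAY6, and 7 and 6 at DAY9. Postn had a peak in the MEF libraries alone, while Col1a1, Col1a2, Col3a1, Prrx1, Twist1 and Fbn1 had one in every library. Of 10 pluripotency markers, 10 had one in each ESC library, 9 in each DAY9 library, and 3 and 5 in the MEF libraries. Of 4 epithelial markers (Krt5, Krt14, Epcam and Cdh1), 1 and 0 had a peak in the MEF libraries, 1 and 0 at DAY3, and 2 and 3 at DAY6. At DAY9 and in ESC 3 had one in each library. Markers of blood and endothelium (Ptprc, Pecam1 and Cdh5) had a peak at 1 or 2 of 3 genes in every library, and Ptprc had none in any. A region without a listed peak is here called closed in that library, which says only that no peak passed the authors' rule.

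Over the whole set of 5 windows, ESC held more peaks than MEF, and in the full lists Lef1 showed the widest gap. With the top 50% of each list the mean ESC minus MEF difference was 7 peaks at Tcf7l1 and 6 at Lef1. The windows together held 64 and 50 peaks in the MEF libraries, 47 and 41 at DAY3, 65 and 55 at DAY6, 72 and 81 at DAY9, and 94 and 75 in ESC. Both ESC libraries lay above both MEF libraries at Lef1, Tcf7 and Axin2, and the stages overlapped at Tcf7l1 and Tcf7l2. Of all genes, 37% had both ESC libraries above both MEF libraries and 12.1% had both below. With 2 libraries against 2, no two-sided exact test can give a p-value below 0.333, so these differences carry no test. The ESC lists were also longer: with every list cut to 45497 peaks, the mean ESC minus MEF difference over the 5 windows was 5 peaks in place of 27.5.

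**Figure D1:**
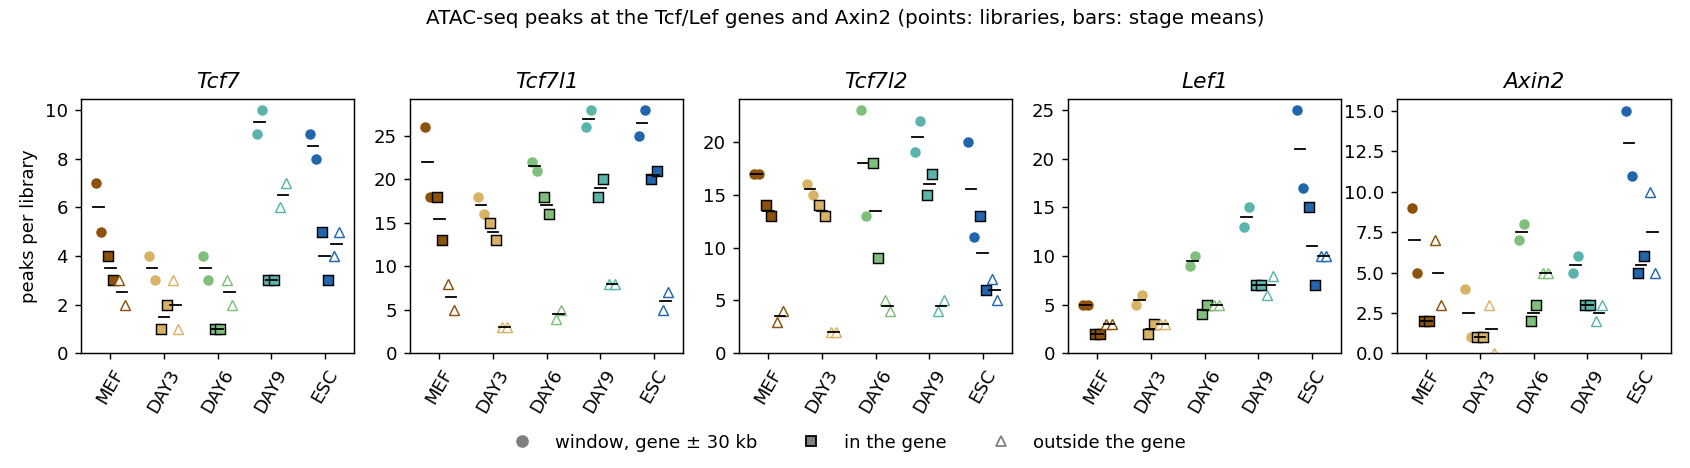
Peaks per library (vertical axis) at each stage (horizontal axis) for the 5 genes, in the window, in the gene and outside it; points are libraries and short bars are stage means. Lef1 has 5 and 5 peaks in the MEF libraries and 25 and 17 in the ESC libraries, and the Tcf7l2 stages overlap.

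The share of the variation in peak number that lay between stages was tested for every gene with an exact permutation test over the 420 arrangements of 8 samples, with Benjamini-Hochberg adjustment over 20954 genes. No gene passed at an adjusted p of 0.05, so the background of calls was 0%. There were 2765 genes with an unadjusted p under 0.05, and the smallest adjusted p was 0.288. The smallest exact permutation p of any gene was 0.00238, so the adjustment over 20954 genes was hard to pass. A missing call therefore does not show that the stages were alike. The share was 93.5% at Tcf7 (exact permutation p = 0.0571, adjusted p = 0.353) and 90.7% at Lef1 (exact permutation p = 0.0548, adjusted p = 0.353). It was 84.3% at Axin2 (exact permutation p = 0.124, adjusted p = 0.387), 69.2% at Tcf7l1 (exact permutation p = 0.341, adjusted p = 0.552) and 18.7% at Tcf7l2 (exact permutation p = 0.936, adjusted p = 0.983). None of the 5 genes was thus called different between stages. The order of the shares depended on list length. With lists of equal length the share was 98.3% at Tcf7l2, 97% at Tcf7l1, 78.2% at Axin2, 73.6% at Tcf7 and 69.4% at Lef1. The adjusted p of the same exact permutation test then ran from 0.34 at Tcf7l2 to 0.629 at Lef1.

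A region was counted as gained where both ESC libraries and no MEF library had a peak, and as lost in the opposite case. Across the 5 genes 39 regions were gained and 22 lost, that is 21% and 11.8% of the 186. Of all 208851 regions 15.9% were gained and 11.1% lost, and of the 151978 regions in windows of protein-coding genes 14.7% were gained and 10.8% lost. In the full lists the lost share at the 5 genes was therefore near the background, and the gained share was above it by a few points. Lef1 had 11 gained and 1 lost region of 35, Tcf7l1 had 12 and 7 of 58, Axin2 had 6 and 2 of 22, and Tcf7 had 4 and 2 of 16. In the full lists Tcf7l2 went the other way, with 6 gained and 10 lost of 55. More gained than lost regions were found at 47.7% of all genes and more lost than gained at 24.8%. Long genes hold more regions: the median was 35 regions at the 5 genes and 10 over all genes tested, with a median of 6 against 1 gained and 2 against 1 lost.

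These counts depended on the length of the lists. With every list cut to the same number of peaks 15 regions were gained and 10 lost. The top 50% of each list gave 14 gained and 5 lost. The shares over all regions were not computed at these settings. Whether the gained share stays above the background there was therefore not tested. At equal list length Tcf7l2 had 5 gained and 5 lost regions, and Tcf7l1 had 5 gained and 1 lost. Without MEF replicate 2 the lost regions numbered 39, and without ESC replicate 2 the gained regions numbered 69.

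The switching regions were also counted by position. Outside the genes 18 of 58 regions (31%) were gained and 6 lost, and in the genes 21 of 128 (16.4%) were gained and 16 lost. The shares over all regions were not split by position. Whether this contrast is particular to the 5 genes was therefore not tested. Whether the switching regions lie in exons or introns was not analysed here. A further 13 regions had a peak in all 10 libraries, 19 were transient, that is open in each library of at least 1 intermediate day and closed in every MEF and ESC library, and 59 had a peak in only 1 library. The transient share was 10.2%, against 9.61% of all regions.

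**Figure D2:**
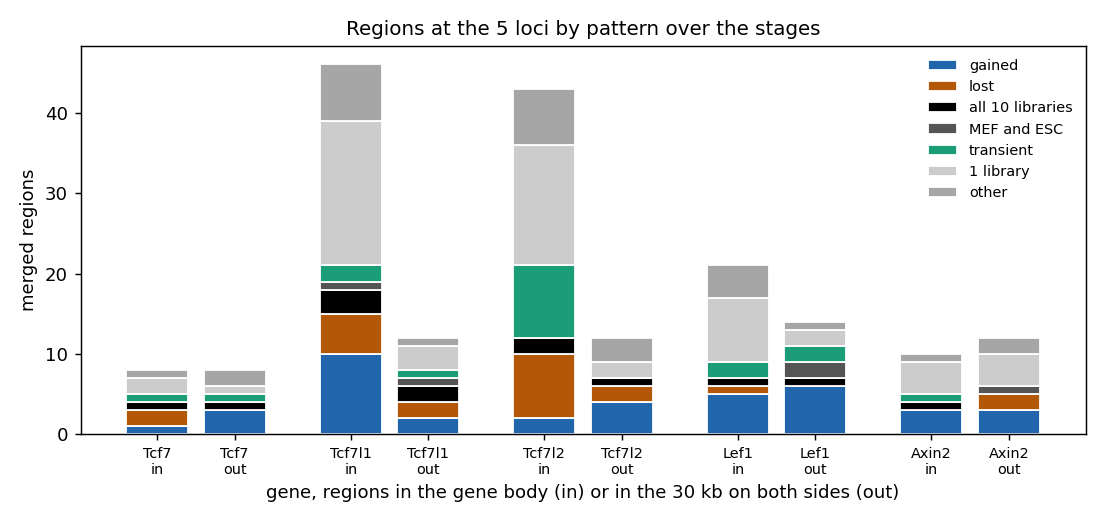
Number of merged regions (vertical axis) in the gene body (in) and in the 30 kb on both sides (out) of each gene, stacked by pattern over the stages. Lef1 has 11 blue gained regions and 1 orange lost one, and inside Tcf7l2 8 regions were lost and 9 green ones transient.

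Lef1 (gene ID 16842, chr3:131110297-131224357, mm10, plus strand) encodes the lymphoid enhancer factor, a TCF family activator partnered by beta-catenin. Its window held 5 and 5 peaks in MEF, 5 and 6 at DAY3, 9 and 10 at DAY6, 13 and 15 at DAY9, and 25 and 17 in ESC. The stages did not overlap from DAY6 on, and the DAY6, DAY9 and ESC libraries all lay above the MEF libraries, which were equal. In the gene there were 2 and 2 peaks in MEF against 15 and 7 in ESC, and outside it 3 and 3 against 10 and 10. The ESC libraries thus differed from each other inside the gene and were alike outside it. With lists of equal length the mean ESC minus MEF difference was 6 peaks in place of 16, with 2 gained regions in place of 11, and without ESC replicate 2 there were 21 gained regions.

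The first listed Lef1 start lay in a gained region, unlike the starts of the other 4 genes. This region (chr3:131110101-131110604) had no MEF peak and no peak in DAY3 replicate 1 or DAY6 replicate 1. The authors' fold enrichment of the peak over its local background, used here only to describe a peak in its own list, was 2.42 in DAY3 replicate 2, 2.91 in DAY6 replicate 2, 3.44 and 3.47 at DAY9, and 5.04 and 4.27 in ESC. It was thus open in both libraries from DAY9 on. The stretch printed above for Lef1 begins before this region and covers its 5′ part, and the KLF match lay across the region's edge. Another region 1.6 kb after the start (chr3:131111164-131112728) was open in all 10 libraries, with folds of 6.21 and 3.96 in MEF, 4.41 and 3.55 at DAY3, 3.47 and 3.49 at DAY6, 3.73 and 2.99 at DAY9, and 6.44 and 4.18 in ESC. The Lef1 promoter area was therefore not closed in fibroblasts as a whole. The region at the first start had no listed peak in MEF and one in both ESC libraries. Whether it stays gained with lists of equal length was not examined.

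The gained Lef1 region with the highest score lay at −26.3 kb (chr3:131083637-131084258). It was closed in MEF, had folds of 2.95 in DAY3 replicate 1, 3.22 in DAY6 replicate 1, 3.52 and 3.21 at DAY9, and 7.99 and 6.22 in ESC. It stands beside a region at −25 kb (chr3:131084553-131086077) that had a peak in all 10 libraries, with folds from 3.44 in DAY3 replicate 2 to 11.7 in ESC replicate 1. The third gained region lay at 137.5 kb (chr3:131247319-131248257), beyond the 3′ end of Lef1 and inside the neighbouring gene Hadh, a mitochondrial enzyme of fatty acid oxidation. It was open only in ESC, with folds of 3.83 and 4.39. The other 8 gained regions had folds of 2.11 or more in ESC, and of all 11 gained regions 8 had no peak outside ESC.

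Only 1 Lef1 region was lost, at 29.2 kb inside the gene (chr3:131139101-131139833), with folds of 3.4 and 3.22 in MEF and no peak in any later library. The strongest of 4 transient regions lay at 34.1 kb (chr3:131144037-131144659), with folds of 10.1 in DAY6 replicate 2, 7.96 and 8.2 at DAY9, and no peak elsewhere. A transient region at 3.8 kb (chr3:131113893-131114252) was open at all 3 intermediate days, with folds of 4.6 and 3.83 at DAY3, 3.94 and 5.14 at DAY6, and 2.54 and 2.91 at DAY9. Lef1 thus held regions open in the intermediates that neither end state had.

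**Figure D3:**
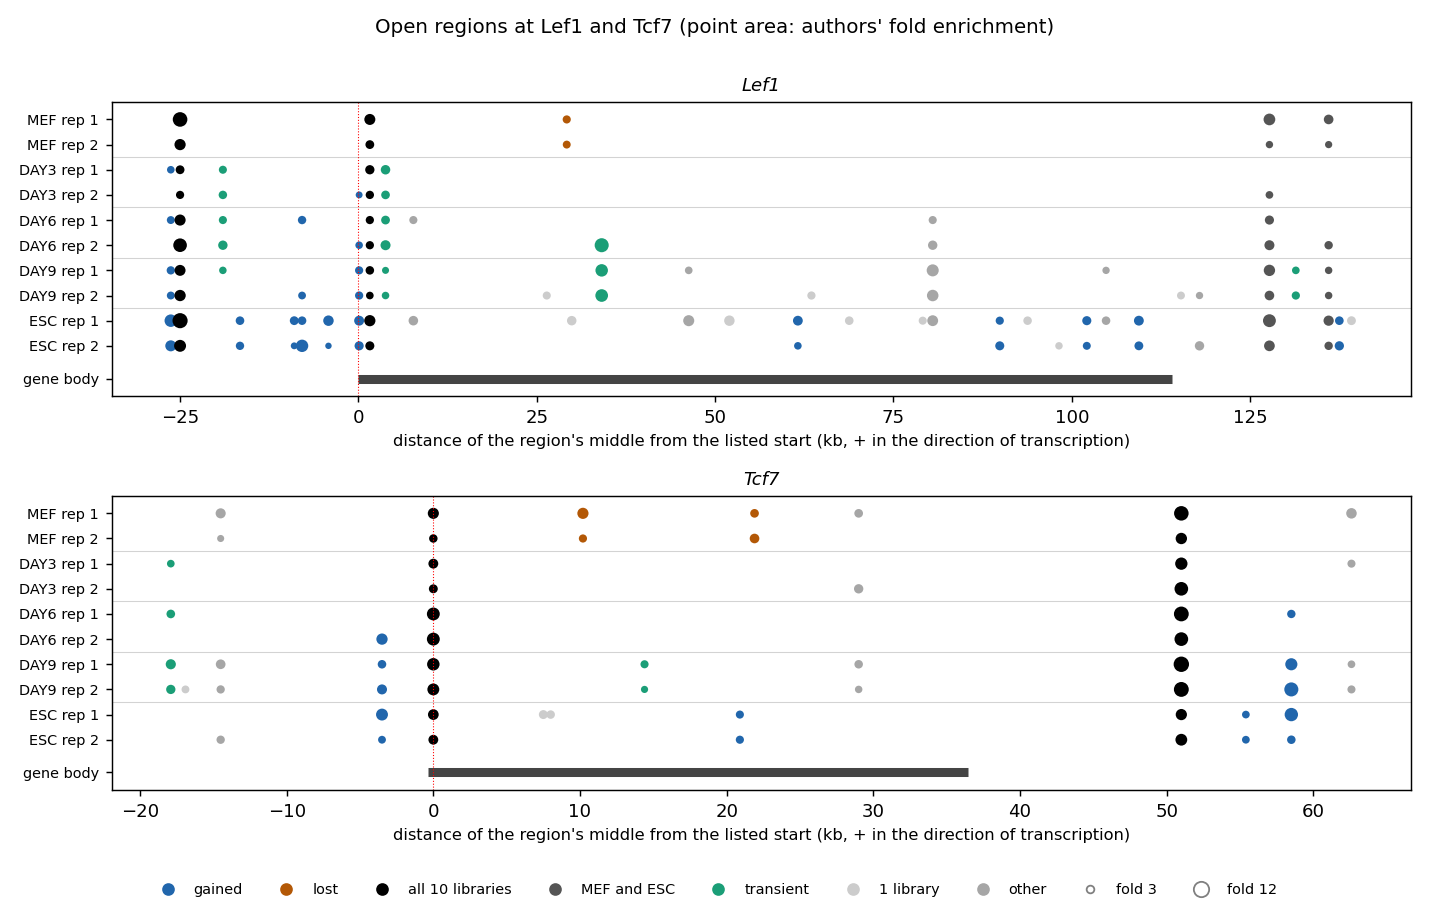
Regions at Lef1 and Tcf7 by distance from the listed start (horizontal axis, kb in the direction of transcription) in each library (rows); point area is the authors' fold and colour the pattern over the stages, and the dark bar is the gene. At Lef1 the blue gained points stand on both sides of the start and near the 3′ end, with few points in the MEF rows.

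Tcf7 (gene ID 21414, chr11:52246527-52283383, minus strand) encodes TCF1, the other TCF that acts mainly as an activator. Its window held 7 and 5 peaks in MEF, 4 and 3 at DAY3, 4 and 3 at DAY6, 9 and 10 at DAY9, and 9 and 8 in ESC. Peak number was lowest at DAY3 and DAY6, and the DAY9 and ESC libraries all lay above the MEF libraries. The difference lay outside the gene, with 3 and 2 peaks in MEF and 4 and 5 in ESC, while inside the gene the libraries overlapped, with 4 and 3 in MEF and 5 and 3 in ESC. With lists of equal length the ESC minus MEF difference in the window was −1.5 peaks in place of 2.5, and gained minus lost regions −1 in place of 2.

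Both listed Tcf7 starts lay in a region (chr11:52282366-52283755) open in all 10 libraries, with folds of 6.3 and 3.67 in MEF, 4.98 and 4.06 at DAY3, 8.47 and 8.49 at DAY6, 7.97 and 7.25 at DAY9, and 5.87 and 4.94 in ESC. The other region open in all 10 libraries was the start of Skp1, a ubiquitin ligase subunit whose gene overlaps the 3′ end of Tcf7. Of the gained regions, the one with the highest score lay 58.5 kb after the start, downstream of the gene (chr11:52223984-52224983). That position is outside Skp1 and beyond its start region, which lay at 51 kb. It had folds of 3.59 in DAY6 replicate 1, 7.53 and 10.1 at DAY9, and 9.12 and 3.71 in ESC. The nearest gained region to the start, at −3.5 kb (chr11:52286258-52286757), had folds of 6.51 in DAY6 replicate 2, 3.75 and 5.14 at DAY9, and 7.26 and 3.14 in ESC. Both were therefore open in both libraries from DAY9 on.

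The remaining Tcf7 gained regions, at 55.4 kb and 20.9 kb, were open in ESC alone, with folds between 3.04 and 3.41. Both lost regions lay inside the gene, at 10.2 kb (folds 6.39 and 3.43 in MEF) and 21.9 kb (folds 3.85 and 4.75 in MEF), and neither had a peak after MEF. Without MEF replicate 2 there were 4 lost regions, as many as gained. The stronger of 2 transient regions, at −17.9 kb (chr11:52300557-52301246), had folds of 3.01 in DAY3 replicate 1, 3.82 in DAY6 replicate 1, and 5.25 and 4.42 at DAY9. In the full lists 3 of 4 gained regions at Tcf7 thus lay outside the gene, and both lost ones inside it. Those gained at 55.4 kb and 58.5 kb lay nearer to the Skp1 start region than to Tcf7. With lists of equal length 0 regions were gained and 1 lost at Tcf7. With the top 50% of each list 0 were gained and 0 lost.

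Tcf7l1 (gene ID 21415, chr6:72626371-72789045, minus strand) encodes the TCF known as a repressor in embryonic stem cells. Its window held 26 and 18 peaks in MEF, 18 and 16 at DAY3, 22 and 21 at DAY6, 26 and 28 at DAY9, and 25 and 28 in ESC. MEF replicate 1 lay as high as the ESC libraries, so the stages overlapped. Inside the gene both ESC libraries, with 20 and 21 peaks, lay above the MEF libraries, with 18 and 13, while outside it 8 and 5 peaks in MEF overlapped with 5 and 7 in ESC. Peak number in the window thus did not separate MEF from ESC, while single regions did.

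The Tcf7l1 start lay in a region (chr6:72788441-72789866) open in all 10 libraries, with folds of 9.37 and 6.9 in MEF, 5.89 and 6.49 at DAY3, 8.8 and 7.88 at DAY6, 7.97 and 7.47 at DAY9, and 6.38 and 7.26 in ESC. Directly beside it, at 1.3 kb (chr6:72787210-72788332), lay the gained region with the highest score. Its folds were 3.93 and 2.94 at DAY3, 4.92 and 4.22 at DAY6, 5.69 and 5.27 at DAY9, and 6.03 and 6.39 in ESC, and MEF had no peak there. Every DAY3, DAY6, DAY9 and ESC library, and neither MEF library, thus had a further peak just inside the gene.

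The next gained region lay upstream, at −6.2 kb (chr6:72794730-72795803). It was closed in MEF and had folds of 4.37 and 4.47 at DAY3, 12.1 and 13.6 at DAY6, 17.2 and 16.2 at DAY9, and 8.48 and 9.25 in ESC. The third lay at 30.4 kb inside the gene (chr6:72758270-72759068), with folds of 4.53 and 5.36 at DAY3, 4.98 and 7.05 at DAY6, 5.69 and 6.59 at DAY9, and 7.45 and 5.8 in ESC. Together with regions at 18.7 kb and 48.3 kb these were the 5 gained regions open in both DAY3 libraries, and all 5 stayed open in every later library. The 4 other listed genes had no gained region that was open in both DAY3 libraries. The other 7 Tcf7l1 gained regions were open in both libraries first at DAY9 (3 regions) or in ESC (4 regions).

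The highest-scoring lost Tcf7l1 region lay at 128.9 kb (chr6:72659704-72660645), with folds of 7.18 and 3.29 in MEF and no later peak. That at 45 kb (chr6:72743392-72744768) had folds of 3.89 and 3.28 in MEF, 6.28 and 5.8 at DAY3 and 3.2 in DAY6 replicate 1, and so closed late. That at −18 kb (chr6:72806832-72807199) had folds of 5.44 and 2.81 in MEF and reappeared at DAY9 with 2.88 and 2.99. Without MEF replicate 2, lost regions outnumbered gained ones at Tcf7l1 by 3, in place of 5 more gained than lost.

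Of the 5 Tcf7l1 regions open in all 10 libraries, 2 were the starts of the neighbours Elmod3 and Retsat (1 shared region) and Tgoln1, and 2 lay inside the gene at 111.4 kb and 133.1 kb, over listed starts of the predicted gene Gm31391. The region at 111.4 kb had folds of 8.67 and 4.08 in MEF and 5.41 and 9.56 in ESC, and that at 133.1 kb had 6.09 and 5.29 in MEF and 7.12 and 4.14 in ESC. The strongest of 3 transient regions lay at 27.3 kb (chr6:72761423-72762060), with folds of 2.83 in DAY3 replicate 1, 4.6 and 3.66 at DAY6, and 3.63 and 4.32 at DAY9. A further 2 regions were open in every MEF and ESC library and missed in at least 1 intermediate library.

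**Figure D4:**
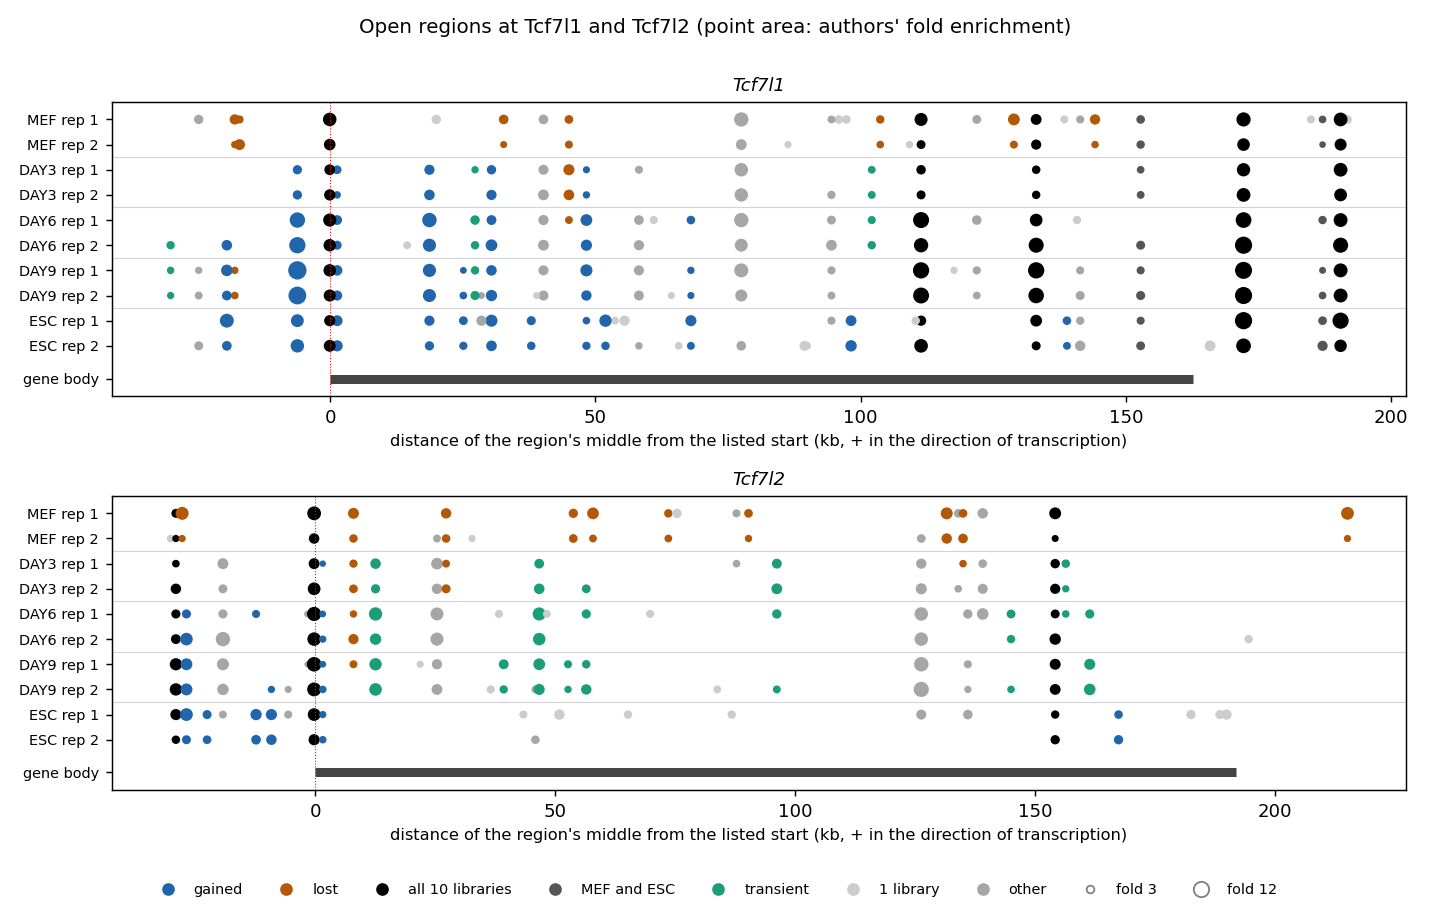
Regions at Tcf7l1 and Tcf7l2 by distance from the listed start (horizontal axis, kb in the direction of transcription) in each library (rows); point area is the authors' fold and colour the pattern over the stages, and the dark bar is the gene. At Tcf7l1 blue gained points near the start begin at DAY3, and inside Tcf7l2 orange points of MEF stand beside green points of the intermediate days, and ESC replicate 2 has 6 peaks there against 13 in ESC replicate 1.

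Tcf7l2 (gene ID 21416, chr19:55741797-55933659, plus strand) encodes TCF4, which can activate or repress. Its window held 17 and 17 peaks in MEF, 16 and 15 at DAY3, 23 and 13 at DAY6, 19 and 22 at DAY9, and 20 and 11 in ESC. The ESC libraries lay on both sides of the MEF libraries. The parts of the locus differed, however: upstream there were 2 and 3 peaks in MEF and 7 and 5 in ESC, whereas inside the gene there were 14 and 13 in MEF and 13 and 6 in ESC. Of 10 lost regions 8 lay inside the gene, and of 6 gained regions 4 lay upstream and 2 inside. Of all 55 regions 43 lay inside the gene. The lost share was thus alike in both parts, with 18.6% inside and 16.7% outside. The gained share was 4.65% inside and 33.3% outside.

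The main Tcf7l2 start lay in a region (chr19:55741095-55742087) open in all 10 libraries, with folds of 9.7 and 5.63 in MEF, 6.11 and 8.32 at DAY3, 10.3 and 9.33 at DAY6, 10.9 and 9.9 at DAY9, and 8.29 and 6.39 in ESC. An internal listed start 153.5 kb into the gene lay in another such region (chr19:55895284-55896833), with folds of 7.25 and 2.57 in MEF, 4.58 and 5.36 at DAY3, 4.1 and 6.62 at DAY6, 6.16 and 6.01 at DAY9, and 3.57 and 4.49 in ESC. Both starts were thus accessible at every stage. The third region open in all 10 libraries lay at −29 kb.

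The gained Tcf7l2 region with the highest score, at −9.1 kb (chr19:55732524-55732941), had folds of 6.41 and 5.62 in ESC and 2.75 in DAY9 replicate 2. That at −26.8 kb (chr19:55714557-55715377) was open in both libraries from DAY6, with folds of 4.27 and 8.15 at DAY6, 7.18 and 7.3 at DAY9, and 8.36 and 4.14 in ESC. That at −12.3 kb (chr19:55729003-55730027) had folds of 3.37 in DAY6 replicate 1 and 6.53 and 4.81 in ESC. These 3 lay upstream, and another upstream region at −22.5 kb was open in ESC alone.

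The lost Tcf7l2 region with the highest score lay 131.6 kb into the gene (chr19:55873110-55873699), with folds of 7.31 and 5.54 in MEF and no peak in any later library. That at 8 kb (chr19:55749375-55750150) closed late, with folds of 6.15 and 3.7 in MEF, 3.5 and 3.9 at DAY3, 2.85 and 5.38 at DAY6, 3.27 in DAY9 replicate 1 and no ESC peak. That at 135 kb (chr19:55876408-55877212) had folds of 3.81 and 4.75 in MEF and 2.93 in DAY3 replicate 1. Of the 10 lost regions 7 had no peak after MEF. Without ESC replicate 2, which had the fewest peaks in this window, gained regions outnumbered lost ones by 6, and with the top 50% of each list by 1, in place of 4 more lost than gained. At equal list length 5 regions were gained and 5 lost.

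Tcf7l2 had the most transient regions of the 5 genes, and all 9 lay inside the gene, where they made up 20.9% of the 43 regions. Of all genes tested, 0.692% had as many transient regions; the gene is long, and this share was not adjusted for length. The strongest, at 12.6 kb (chr19:55754081-55754775), had folds of 5.7 and 4.36 at DAY3, 9.12 and 6.68 at DAY6, and 7.8 and 8.14 at DAY9. The region at 46.7 kb (chr19:55788242-55788836) followed the same pattern, with folds of 4.87 and 5.73 at DAY3, 8.84 and 8.01 at DAY6, and 7.1 and 6.24 at DAY9. Both were closed in every MEF and ESC library. Inside Tcf7l2, regions open in MEF and closed in ESC thus stood beside regions open at the intermediate days alone.

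Axin2 (gene ID 12006, chr11:108917828-108950783, plus strand), the feedback inhibitor and target gene, had 9 and 5 peaks in MEF, 4 and 1 at DAY3, 7 and 8 at DAY6, 5 and 6 at DAY9, and 15 and 11 in ESC. The ESC libraries lay above all others, and the DAY3 libraries held the fewest peaks. In the gene there were 2 and 2 peaks in MEF and 5 and 6 in ESC; outside it 7 and 3 in MEF overlapped with 10 and 5 in ESC. The libraries of MEF and ESC were therefore apart inside the gene. With lists of equal length the difference in the window was 1 peak in place of 6, with 3 gained and 3 lost regions, and without MEF replicate 2 there were 5 lost regions and without ESC replicate 2 10 gained ones.

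The Axin2 start lay in a region (chr11:108919940-108921448) open in all 10 libraries, with folds of 9.66 and 5.59 in MEF, 5.79 and 6.14 at DAY3, 9.13 and 7.56 at DAY6, 11 and 8.94 at DAY9, and 8.32 and 6.93 in ESC. In DAY3 replicate 2 this was the only peak of the window. The gained region with the highest score lay 23.6 kb into the gene (chr11:108943701-108944257), open in ESC alone with folds of 10.8 and 5.94. Next came a region at −31.1 kb (chr11:108888972-108889574), with folds of 3.83 and 3.8 at DAY6, 8.55 and 8.83 at DAY9, and 5.38 and 6.73 in ESC. The third, at −9.9 kb (chr11:108909511-108911351), covered a listed start of the predicted gene Gm46298 and had folds of 3.81 in DAY3 replicate 1, 4.41 and 6.01 at DAY6, 4.19 and 5.25 at DAY9, and 5.32 and 4.33 in ESC. Both of the latter were open in both libraries from DAY6, whereas the 3 gained regions inside Axin2 were open in both libraries only in ESC.

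Both lost Axin2 regions lay outside the gene and had no peak after MEF. That at −22.2 kb (chr11:108897825-108898571) had folds of 9.22 and 5.22 in MEF, and that at 60.2 kb (chr11:108980065-108981032), over a listed start of the predicted gene Gm36876, 9.89 and 4.17. The 1 transient region lay near the 3′ end of the gene at 29.4 kb (chr11:108949199-108950293), with folds of 8.2 and 6.61 at DAY6 and 4.32 and 4.42 at DAY9. Each of these 3 regions was thus closed in every ESC library.

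**Figure D5:**
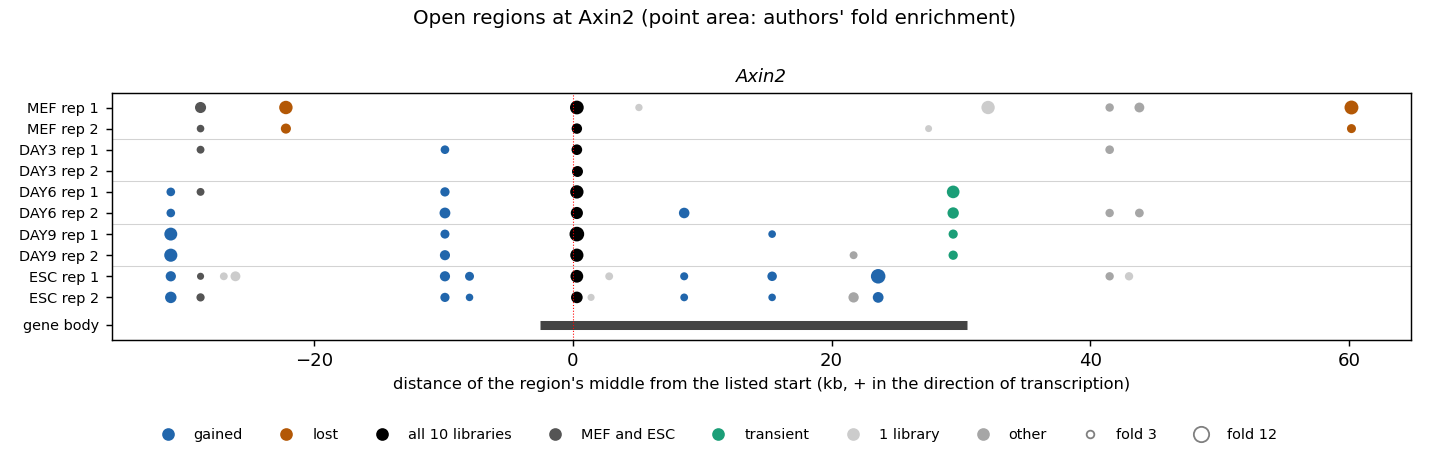
Regions at Axin2 by distance from the listed start (horizontal axis, kb in the direction of transcription) in each library (rows); point area is the authors' fold and colour the pattern over the stages, and the dark bar is the gene. The black region at the start is present in every row, and the blue region 23.6 kb into the gene appears in the ESC rows alone.

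The order of closing and opening was then compared over the gained and lost regions. Of the 22 lost regions, 18 (81.8%) were already closed in both DAY3 libraries, 2 closed at DAY6, 1 at DAY9 and 1 in ESC. Of the 39 gained regions, 5 (12.8%) were open in both libraries from DAY3, 4 from DAY6, 7 from DAY9 and 23 (59%) in ESC only. These shares were near those over all regions, where 79.4% of 23262 lost regions were closed at DAY3 and 60.9% of 33275 gained regions were open in both libraries only in ESC. The DAY3 lists were the shortest: with every list cut to their length, 60% of the lost regions were closed at DAY3 in place of 81.8%, and 60% of the gained regions were open in both libraries of an earlier stage in place of 41%. That most gains came only in ESC therefore holds for the full lists and not for lists of equal length. Of the gained regions 21 had a peak in at least 1 library of another stage and 18 in ESC alone. In 19 of the 22 lost regions the fold was higher in MEF replicate 1, the library with the lower background pileup (3.42 against 8.32).

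The other genes of the Wnt pathway were counted over a list of 66 genes of ligands, receptors, cytoplasmic components, inhibitors, nuclear cofactors and target genes. Of these, 30 (45.5%) had more gained than lost regions and 15 (22.7%) more lost than gained, close to the 47.7% and 24.8% of all genes, and the median of gained minus lost was 0 in the list and over all genes. Both ESC libraries lay above both MEF libraries at 19 genes (28.8%, below the 37% of all genes) and below at 7, and no gene had a stage difference at an adjusted p under 0.05. Cytoplasmic components had more gained than lost regions at 8 of 12 genes, inhibitors at 6 of 13 and nuclear cofactors at 4 of 9. The number was 6 of 16 for receptors, 4 of 12 for ligands and 2 of 8 for target genes. With so few genes in each class, differences between the classes were not tested. In the full lists Lef1, a long gene with 10 more gained than lost, stood above every gene of the list; with lists of equal length its difference was 2, and the list was not recomputed there.

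The highest difference in the list was at Lgr4, an R-spondin receptor, with 6 gained and 0 lost regions and 7 and 10 peaks in MEF against 11 and 15 in ESC. It was followed by 3 genes with 4 more gained than lost. Gsk3b, a kinase of the destruction complex, had 7 gained and 3 lost regions and went from 6 and 8 peaks in MEF to 16 and 13 in ESC. The receptor gene Fzd8 had 4 gained and 0 lost, with 3 and 2 peaks in MEF and 6 and 7 in ESC. The target gene Cdx1 had 6 gained and 2 lost, with 7 and 7 peaks in MEF and 11 and 7 in ESC. The lowest genes were Nkd1 and Sfrp2, both inhibitors. Nkd1, a Dishevelled antagonist, had 0 gained and 4 lost and 10 and 7 peaks in MEF against 6 and 4 in ESC. Sfrp2, a secreted Wnt binder, had 1 gained and 4 lost and 11 and 8 against 5 and 6. Inhibitors as a class had more lost than gained at 4 of 13 genes and more gained at 6. A further 10 genes had 2 more lost than gained.

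The genes with the most similar pattern were ranked by the correlation, over the 10 libraries, of the base pairs covered by peaks in the window divided by those covered in the library. For Lef1 they were Epb41l4b (Pearson r 0.961), Cox10 (0.959) and Sh3gl3 (0.952) of 9443 genes, and for Tcf7l1 they were Dock9 (0.961), Bcas3 (0.960) and Abr (0.950) of 910. For Tcf7l2 they were Ctdnep1 (0.964), Cntd1 (0.954) and Phlpp1 (0.954) of 3914, and for Axin2 Nlrp10 (0.906), Stra8 (0.899) and Tppp2 (0.898) of 13342. These values describe the same 10 libraries, which share depth and list length, and each is the best of a large number of candidates and so high by selection. Epb41l4b had 4 and 4 peaks in MEF and 21 and 11 in ESC, and so shared with Lef1 the larger number in ESC replicate 1.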

How the data were processed

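The 10 deposited peak lists hold 10 columns without a header, in the layout of narrowPeak, called per library. Column 5 is the authors' score, 10 times the deposited −log10 p-value, column 7 the authors' fold enrichment, a linear ratio, and columns 8 and 9 the deposited −log10 p- and q-values. The submitters' processing notes name Bowtie2 2.3.2, deepTools 2.3.6, MACS2 2.1.1 and mm10; filters and handling of the transposase offset are not given in the sources used here.

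Gene limits were taken from RefSeq (GRCm38) and windows reached 30 kb to each side. Peaks of all libraries that overlapped by at least 1 bp were merged, and a library had a region if any of its peaks lay in it. Scripts used Python 3.11.15, numpy 2.4.6, pandas 2.3.3 and scipy 1.17.1, and were tested on simulated lists. Background pileup was solved from fold and p under a Poisson model. Peak numbers were compared by an exact permutation test of the between-stage sum of squares.

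At each gene the region over the start, the 3 gained and 3 lost regions with the highest score (lowest of the 2 libraries), the regions open in all 10 libraries and the strongest transient region were named, with some others chosen after their values were seen. In the Wnt list genes with the 3 highest or 3 lowest values of gained minus lost were named. The members and lists were chosen with earlier results of these data known. Alternatives were lists of equal length, the top 50% of each list, 50% coverage of a region, covered base pairs, windows of 10 and 50 kb, 10 separate libraries, a replicate block and leaving out each library. Same-numbered libraries did not deviate together (r from −0.0095 to 0.022 over 10 pairs of stages). Sequences of the switching regions were not analysed here, because no genome was used, so the motif counts cover promoters only. The genes of similar pattern to Tcf7 are not reported here.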

Additional observations from a re-analysis of the deposited data

How the results depend on the processing

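With lists of equal length 15 regions were gained and 10 lost, in place of 39 and 22, and the ESC minus MEF difference over the 5 windows was 5 peaks in place of 27.5. With the top 50% of each list the values were 14, 5 and 13. The shares of all regions that were gained or lost were not computed at these settings. In the replicate block, which counts within same-numbered pairs, 60.5 regions were gained and 35.5 lost on average. Leaving out 1 MEF or ESC library gave 39 to 69 gained regions, 22 to 39 lost regions and a difference of 18 to 37 peaks. Covering 50% of a region, or windows of 10 or 50 kb, gave 29 to 43 gained and 16 to 23 lost regions. Gained minus lost turned at Tcf7 with equal lists (−1), at Tcf7l2 with the top 50% (1) and without ESC replicate 2 (6; range −8 to 6 over the libraries left out), and at Tcf7l1 without MEF replicate 2 (−3; range −3 to 10). The ESC minus MEF peak number in the window turned at Tcf7 with equal lists (−1.5 in place of 2.5) and at Tcf7l2, where the stages overlap, without ESC replicate 2 (3 in place of −1.5). Neither value changed sign at Lef1 or Axin2 under any alternative run. With equal lists, however, gained minus lost was 2 at Lef1 in place of 10, and 0 at Axin2 in place of 4. It was then 0 at Tcf7l2 in place of −4, and 4 at Tcf7l1 in place of 5. The cause of these shifts was not tested beyond list length and single libraries.

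Under every alternative run, including the replicate block, 0 of the 5 genes had a stage difference at an adjusted p under 0.05. The few arrangements limit this result. Over all genes the smallest exact permutation p was 0.00106 with 10 libraries and 0.00833 in the replicate block. The smallest adjusted p of any gene there was 0.101 and 0.227, so these alternatives do not show that the stages were alike. The exact permutation p of Lef1 ranged from 0.00317 with 10 libraries to 0.383, and its adjusted p from 0.101 to 0.629. Read depth is unknown, so a missing peak may lie below the authors' threshold. The planned motif shares of switching regions were not run.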

Other observations

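Of the 186 regions, 59 had a peak in only 1 library. ESC replicate 1 held 22 of these, MEF replicate 1 held 9, DAY9 replicate 2 held 8, ESC replicate 2 held 6, and MEF replicate 2 and DAY6 replicate 1 held 5 each. DAY6 replicate 2 and DAY9 replicate 1 held 2 each, and the DAY3 libraries held 0. ESC replicate 1 had more peaks than ESC replicate 2 at Lef1 (25 against 17) and Tcf7l2 (20 against 11) and fewer at Tcf7l1 (25 against 28), although its whole list was the shorter (86585 against 88980 peaks). Its background pileup was 3.48 and that of ESC replicate 2 5.46.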
